A study of Homo sapiens with 16 samples.

Results

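The frameshift variant R117fs of RNF43 was compared with wild-type RNF43 (WT), each overexpressed in HEK293, an established line of human embryonic kidney origin. The comparison rested on 8 of the 16 RNA-seq libraries of the series, 4 for R117fs and 4 for WT, taken by the construct their labels name. All 8 carried an RNF43 construct, so the contrast is between the variant and the intact gene and not between presence and absence of overexpression. Of the other 8 libraries, 4 came from HEK293 cells overexpressing GFP and 4 from cells overexpressing the frameshift variant G659fs. They entered the same fit and show on which side of the GFP control each RNF43 construct lay. The sources used here do not give the promoter and vector of the constructs, the time after their introduction, or whether each replicate was a culture of its own. The p-values thus rest on a spread between libraries that may be technical.

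RNF43 is a transmembrane E3 ubiquitin ligase. Its extracellular part comes first in the protein, followed by a membrane-spanning segment and an intracellular RING domain that recruits the ubiquitin-conjugating enzyme. It marks Frizzled receptors for removal from the cell surface and so lowers the response to Wnt ligands, and R-spondins bound to LGR receptors relieve this brake. Proteins with a signal peptide, RNF43 among them, fold in the endoplasmic reticulum (ER), where the chaperone BiP (HSPA5), disulfide isomerases and a degradation pathway for misfolded chains work. When unfolded chains accumulate there, ATF6, XBP1 and PERK raise the transcription of ER folding genes and slow general translation. R117fs and G659fs are recurrent frameshifts of RNF43 in colorectal and other tumours.

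The frameshift R117fs lies in exon 3 of RNF43 (ENSG00000108375; GENCODE 29 transcript ENST00000577716 of 4367 bases in 10 exons, minus strand of GRCh38). Exon 3 spans chr17:58370911-58371033 and ends in codon 125. Codon 117, an arginine codon, occupies chr17:58370935-58370937. The reference coding sequence from codon 105 to codon 129 is shown because it holds the position at which the reading frame of the variant departs from that of WT, with codon 117 in capitals.
RNF43 codons 105 to 129: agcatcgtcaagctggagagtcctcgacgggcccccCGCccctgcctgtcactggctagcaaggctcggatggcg
The base change behind the label was not given in the sources used here, so the altered frame is not printed.

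Estimated counts summed to between 32761360 and 46779570 in the WT libraries and between 20364357 and 41161835 in the R117fs libraries. All 6 markers of HEK293 cells examined (VIM, KRT8, KRT18, PAX2, NEFL and NEFM) had a mean of at least 1 CPM (TMM-scaled counts per 1000000 in a library) in both groups, with summed levels of 1250 to 1350 CPM in WT and 1060 to 1260 CPM in R117fs. The haematopoietic marker HBB and the gut marker KRT20 were at 0 in all 8 libraries. R117fs replicate 4 stood apart. Its genes deviated from the mean of the other R117fs libraries with an SD of 0.578 on the log2 scale, against 0.292 to 0.409 for each of the other 7 libraries in its own group, and across genes, which are no independent replicates, these deviations had a Spearman correlation of 0.799 with GC content. R117fs replicate 1 had the lowest share of RNF43 counts of its group, 2.985%, against 7.824%, 9.107% and 6.78% in replicates 2, 3 and 4. Counts of list members called are given with and without R117fs replicate 4.

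The overexpressed gene was examined first. RNF43 stood at 42146, 58625, 52845 and 59768 CPM in WT replicates 1 to 4 and at 30191, 79637, 94568 and 69368 CPM in the R117fs replicates. The R117fs range enclosed the WT range, with replicate 1 below and the other 3 above every WT library. In the GFP libraries the mean was 31.4 CPM. The fitted difference of 0.36 ± 0.35 on the log2 scale (SE) did not pass the threshold (edgeR adjusted p = 0.543, or 0.611 without R117fs replicate 4), and with an offset for effective length it turned to -0.29 (edgeR adjusted p = 0.69).

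**Figure D1:**
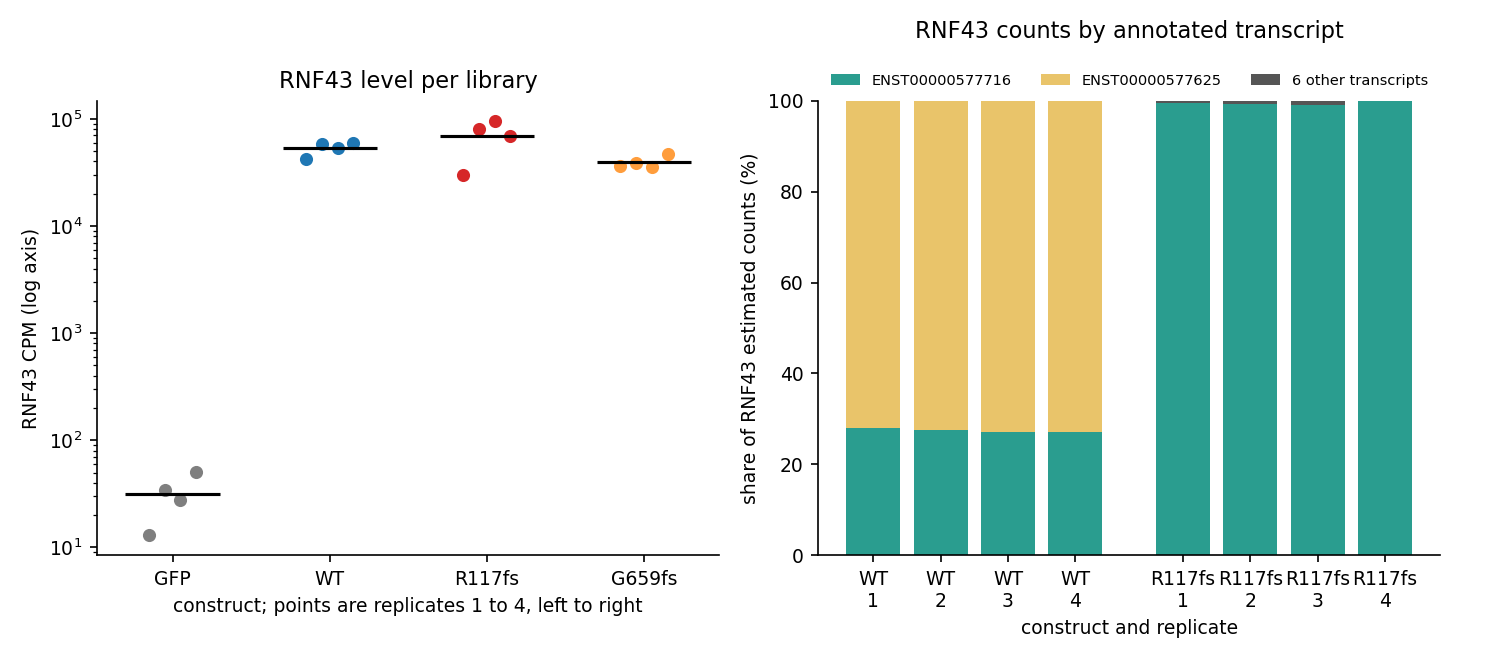
RNF43 in CPM on a log axis for the 16 libraries (points, with the mean of 4 as a line), and the share of RNF43 estimated counts on each annotated transcript in the 8 WT and R117fs libraries (stacked bars, percent). ENST00000577625 takes 71.98% to 72.9% of the counts in every WT library and under 0.0048% in every R117fs library.

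The counts were divided between annotated transcripts in opposite ways. ENST00000577625 (2198 bases, 9 exons) held between 71.98% and 72.9% of RNF43 counts in the WT libraries and between 0.001773% and 0.004799% in the R117fs libraries. ENST00000577716 held 27.48% ± 0.415 in WT (SD, n = 4) and 99.44% ± 0.357 in R117fs. The groups did not overlap for either transcript (exact two-sided permutation test, p = 0.0286 for each, the smallest that 4 against 4 allows, and 0.0571 adjusted over the 8 annotated transcripts), and the G659fs libraries divided as WT did, with 71.72% to 72.25% on ENST00000577625. Both transcripts contain exon 3 of ENST00000577716 and all exons from there to the end of exon 9. They differ at the ends: ENST00000577716 alone holds exon 2, which encodes the first 84 codons, and most of the 1311 bases of its last exon, of which ENST00000577625 holds 60. These shares say how reads of overexpressed RNF43 were assigned to reference transcripts. The sequence of each construct was not given in the sources used here, so the shares measure no splicing and the RNF43 levels do not count RNA molecules.

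Across all genes, 1362 of 16787 tested (8.11%) differed between R117fs and WT at an edgeR adjusted p under 0.05, 755 higher (4.50%) and 607 lower (3.62%) in R117fs. Of these, 175 (1.04%) differed at least 2-fold, 77 higher (0.459%) and 98 lower (0.584%). Without R117fs replicate 4, 1617 of 17053 genes passed (9.48%), 801 higher (4.70%) and 816 lower (4.79%), and 149 (0.874%) differed at least 2-fold, 61 higher (0.358%) and 88 lower (0.516%). Of the 1362 genes, 1154 also passed without that library, none with the opposite direction. The median GC content was 56.75% in the genes called higher and 46.42% in those called lower, against 49.53% in all genes tested. Without R117fs replicate 4 the 2 medians were 52.22% and 47.6%, and the Spearman correlation of the log2 difference with GC content over genes went from 0.393 to 0.031. The number of calls changed with the libraries kept. It was 2607, 909 and 1061 without R117fs replicates 1, 2 and 3, and 779, 626, 696 and 660 without WT replicates 1, 2, 3 and 4. With the 8 libraries fitted alone, so that the GFP and G659fs libraries no longer informed the spread, 154 genes passed, 78 higher and 76 lower.

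**Figure D2:**
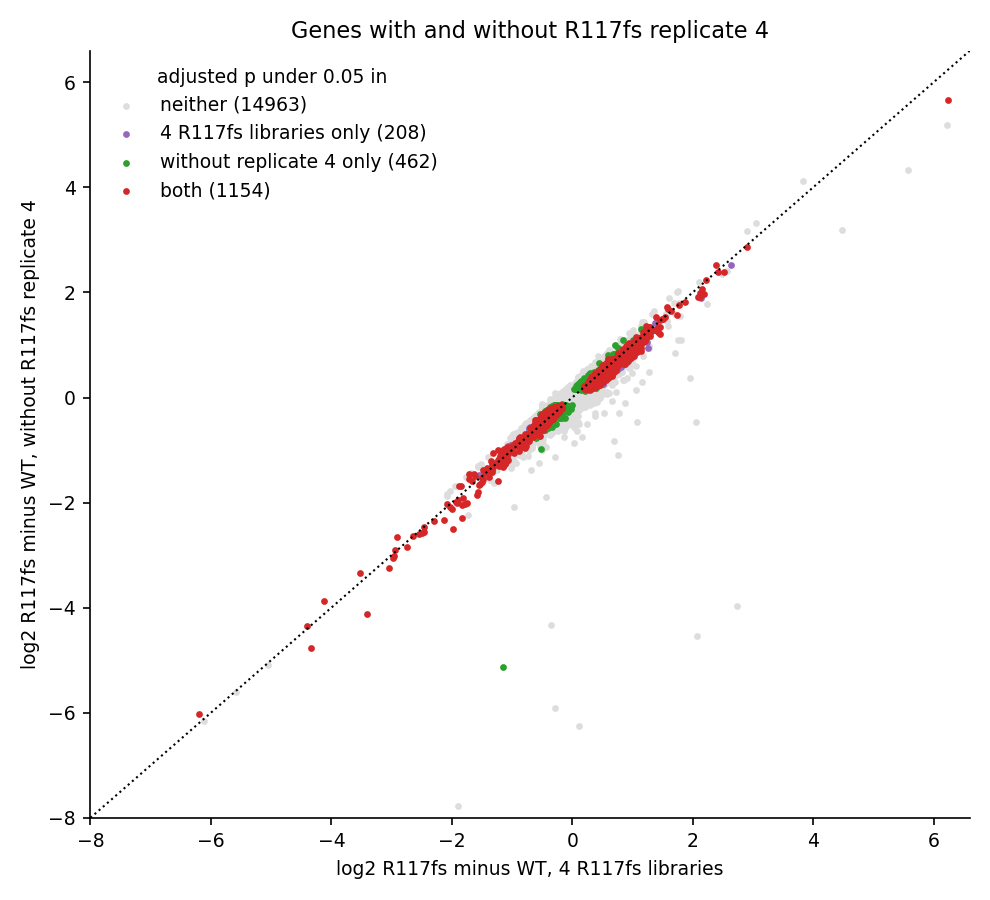
Log2 difference, R117fs minus WT, of each of the 16787 genes tested, with 4 R117fs libraries (horizontal axis) and without R117fs replicate 4 (vertical axis), coloured by the fit in which the adjusted p was under 0.05. The 1154 genes called in both lie along the diagonal, none with opposite signs.

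Part of the genes for folding in the ER lumen rose in R117fs. Of the 30 chaperones and cochaperones of the ER lumen tested, 11 rose, 0 fell and 19 did not pass, with a median log2 difference of 0.14, against -0.01 over all genes (4.50% called higher). Without R117fs replicate 4, 13 rose and 0 fell, and leaving out any 1 of the 8 libraries gave between 9 and 15 higher and at most 2 lower. By limma-voom 17 rose and 4 fell, and 14 and 5 with a GC trend removed and a replicate block. At an unadjusted p under 0.05, 15 were higher and 4 lower (15 and 6 without R117fs replicate 4). Relative to the WT mean, the list's median was -0.22 to -0.16 on the log2 scale in GFP and 0.06 to 0.23 in R117fs, against -0.01 to 0.01 in WT. HSPA5 (BiP, the ER member of the HSP70 family) was at 1087, 1085, 1081 and 1077 CPM in WT replicates 1 to 4 and at 1254, 2427, 2649 and 2147 CPM in the R117fs replicates. Every R117fs library lay above every WT library, and R117fs replicate 1 lay nearest to them. The rise was 1.96-fold (log2 0.97 ± 0.14, edgeR adjusted p = 0.000665, and 0.00667 without R117fs replicate 4). R117fs replicate 1 was the lowest of its group for HSPA5 and for RNF43 itself, and the part of the RNF43 level in the HSPA5 level was not tested.

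HYOU1, the large ER chaperone that also exchanges nucleotide on BiP, was at 173, 157, 172 and 164 CPM in WT and at 223, 299.8, 304 and 367 CPM in R117fs. The groups were separate, and the rise was 1.79-fold (edgeR adjusted p = 0.000197). HSP90B1, the ER member of the HSP90 family, was at 892, 938, 866 and 903 CPM in WT and at 1000.3, 1496, 1555 and 1059.8 CPM in R117fs. Here R117fs replicates 1 and 4 were close to the WT range and replicates 2 and 3 well above it, for a rise of 1.42-fold (edgeR adjusted p = 0.00824). SDF2L1, MANF and CRELD2, secreted or resident proteins of the ER known to be induced when folding fails, rose by 0.87, 0.71 and 0.70 on the log2 scale, and CRELD1, DNAJB11, CALR, FKBP11 and FKBP2 by 0.54, 0.49, 0.47, 0.44 and 0.32. FKBP2 no longer passed without R117fs replicate 4 (edgeR adjusted p = 0.054). DNAJB9, a BiP cochaperone and a familiar target of XBP1, did not share the rise, with 39.3 ± 3.48 CPM in WT and 31.4 ± 6.26 CPM in R117fs (SD, n = 4, edgeR adjusted p = 0.0791). With the 8 libraries alone 3 members of the list passed, and without R117fs replicate 4 as well, 6 passed and HSPA5 did not (edgeR adjusted p = 0.0641).

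The promoters of 4 of the called ER genes hold the ER stress response element (ERSE), the site through which ATF6 and NF-Y are known to act. It was searched as CCAAT, any 9 bases and CCACG, on both strands, in the 250 bases before the gene start in RefSeq's annotation of GRCh38.p14. Of the 23 genes called higher in the 5 ER lists, 22 had a promoter in the table and 4 of these held an ERSE (18.18%). It stood in 4 of the 122 with a promoter among the ER list members that did not pass (3.28%). Among all genes tested, 17 of the 11820 with a promoter held it (0.144%), and among all 27305 promoters 22 did (0.0806%). The windows of the 4 called genes are shown because they carry the element, which stands in capitals. On the opposite strand it reads CGTGG, 9 bases, ATTGG.
HSPA5: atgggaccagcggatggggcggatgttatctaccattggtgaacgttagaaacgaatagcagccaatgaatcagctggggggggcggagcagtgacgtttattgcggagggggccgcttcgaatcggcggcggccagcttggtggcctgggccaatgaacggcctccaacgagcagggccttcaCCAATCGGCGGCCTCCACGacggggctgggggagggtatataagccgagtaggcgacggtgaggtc
HSP90B1: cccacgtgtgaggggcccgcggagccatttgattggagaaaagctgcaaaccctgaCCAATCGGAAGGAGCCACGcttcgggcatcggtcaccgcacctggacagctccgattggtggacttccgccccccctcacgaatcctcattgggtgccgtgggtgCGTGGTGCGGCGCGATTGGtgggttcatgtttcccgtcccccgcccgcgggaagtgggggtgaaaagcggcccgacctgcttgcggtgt
CRELD2: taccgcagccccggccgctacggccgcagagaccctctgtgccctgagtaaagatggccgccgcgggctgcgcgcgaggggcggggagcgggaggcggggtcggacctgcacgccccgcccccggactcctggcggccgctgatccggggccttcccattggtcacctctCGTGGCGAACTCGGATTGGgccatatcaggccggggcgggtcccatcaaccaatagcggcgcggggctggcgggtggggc
CALR: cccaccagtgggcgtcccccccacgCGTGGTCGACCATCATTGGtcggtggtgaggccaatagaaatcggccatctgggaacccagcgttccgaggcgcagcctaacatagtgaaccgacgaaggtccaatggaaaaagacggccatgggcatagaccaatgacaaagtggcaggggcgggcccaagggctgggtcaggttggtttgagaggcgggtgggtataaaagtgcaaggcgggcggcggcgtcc
The windows are chr9:125241344-125241593 (minus strand) for HSPA5, chr12:103930160-103930409 (plus strand) for HSP90B1, chr22:49918384-49918633 (plus strand) for CRELD2 and chr19:12938359-12938608 (plus strand) for CALR. The element begins 66 bases before the start in HSPA5, 80 in CRELD2 and 225 in CALR, and HSP90B1 holds 2, at 194 and 89. The HSPA5 element is on the printed strand, that of CRELD2 and CALR on the other, and HSP90B1 has 1 of each. The stretch of CRELD2 also lies before ALG12, a mannosyltransferase gene that starts in the opposite direction, which was at 41.7 ± 1.12 CPM in WT and 51.57 ± 10.51 CPM in R117fs (edgeR adjusted p = 0.0582). The shorter CCACG alone stood in 18 of the 22 promoters (81.82%), in 57.38% of those of the ER list members that did not pass, in 43.23% of those of all genes tested and in 33.28% of all promoters. XBP1, CANX, ERO1B and ALG12 held an ERSE and did not pass the threshold, and a match is a description of letters, not of binding. The element was already known from promoters of ER stress genes, so its share among the called ER genes is no support from these data. No test was run on these shares.

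Fewer members of the other ER lists passed. Among 24 disulfide isomerases and ER oxidoreductases 4 rose and 1 fell, among 34 genes of ER-associated degradation 5 rose and 0 fell, and among 60 genes for entry into the ER, N-glycosylation and COPII export 3 rose and 0 fell. The last share, 5%, is near the 4.50% of all genes called higher. The median log2 differences were 0.00, 0.00 and 0.00, with members on both sides of 0 (13 positive and 11 negative, 17 and 17, and 32 and 28). The counts were 5 and 1, 5 and 0, and 6 and 0 without R117fs replicate 4. The degradation count was 3 without WT replicate 2 or WT replicate 4, and the count for entry and export was 7 without R117fs replicate 1 and 1 without WT replicate 3. With the 8 libraries alone 1, 1 and 0 genes of these lists rose. For entry and export, 17 rose and 4 fell without R117fs replicates 1 and 4, 16 and 2 with a GC trend removed and 18 and 5 by limma-voom, settings under which 3375, 2975 and 5014 of all genes were called.

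PDIA4, a disulfide isomerase with several thioredoxin domains, was at 260.1, 269, 263 and 266 CPM in WT replicates 1 to 4 and at 405, 776, 831 and 812 CPM in R117fs. All R117fs libraries were above all WT libraries, with replicate 1 between the groups. The rise was 2.67-fold (log2 1.42 ± 0.15, edgeR adjusted p = 2.09e-05, and 0.000919 without R117fs replicate 4). P4HB, the classical protein disulfide isomerase, and PDIA6 rose by 0.41 and 0.36 on the log2 scale, and TXNDC12 fell by 0.26.

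DERL3, a derlin of the channel that returns misfolded chains to the cytosol, was at 4.81, 3.39, 3.65 and 3.44 CPM in WT and at 7.83, 13.8, 12.85 and 17.5 CPM in R117fs. The ranges were apart and the rise was 3.34-fold (edgeR adjusted p = 3.29e-05). The gene overlaps SMARCB1 on the other strand, and the strand setting of the counting was not given in the sources used here. SYVN1, the ligase HRD1, its partner SEL1L and HERPUD1, a scaffold of the same complex, rose by 0.46, 0.50 and 0.46 on the log2 scale. The call of SEL1L was lost without R117fs replicate 2, WT replicate 2 or WT replicate 4, with an edgeR adjusted p of up to 0.0673.

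Of 21 sensors and other factors of the unfolded protein response, MBTPS1, PPP1R15A and BAK1 among them, edgeR called 0 higher and 0 lower, with all libraries and without R117fs replicate 4. Without R117fs replicate 1, 3 were lower. At an unadjusted p under 0.05 there were 3 higher and 4 lower (1 and 5 without R117fs replicate 4), DESeq2 called 1 lower, and limma-voom called 2 higher and 5 lower. XBP1 was at 446, 386, 434 and 411 CPM in WT and at 365, 409.9, 387 and 373 CPM in R117fs, with overlapping ranges (log2 -0.13 ± 0.07, edgeR adjusted p = 0.232). DDIT3 (CHOP), the pro-apoptotic factor of this response, was at 57.8 to 87.9 CPM in WT and at 85.6 to 111 CPM in R117fs (log2 0.39 ± 0.15, edgeR adjusted p = 0.117). ERN1 (IRE1) gave a log2 difference of 0.23, and ATF6 and EIF2AK3 (PERK) gave -0.06 and -0.02, with the sign of both turning without R117fs replicate 4 (0.02 and 0.07). None passed the threshold. XBP1 and ATF6 act mainly through splicing and cleavage, which gene-level counts do not show.

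Of 34 targets of ATF4, the factor that raises amino acid supply, 0 rose and 5 fell (3.62% of all genes were lower), with a median log2 difference of -0.12, and 30 of the 34 values were negative. By library, the list's median relative to the WT mean was -0.18 and -0.27 on the log2 scale in R117fs replicates 2 and 3, but -0.003 and 0.12 in replicates 1 and 4, against -0.07 to 0.05 in WT. Only replicates 2 and 3 thus lay below the WT libraries. The GFP libraries lay at -0.19, -0.39, -0.29 and -0.48, below R117fs replicates 1, 2 and 4, and R117fs replicate 3 lay within the GFP range. The 5 were PSAT1 and PSPH of serine synthesis, MTHFD2 of mitochondrial folate metabolism, CTH of cysteine synthesis and the factor ATF3, with log2 differences of -0.42, -0.26, -0.30, -0.29 and -0.30. CTH was lost without any 1 library other than R117fs replicate 1 (edgeR adjusted p up to 0.139), MTHFD2 without R117fs replicate 2 or any WT library (up to 0.107), and PSPH without R117fs replicate 2 or WT replicates 1, 3 or 4 (up to 0.0688). The number lower was 7 without R117fs replicate 4. It was 2 without R117fs replicate 2 or WT replicates 1, 3 or 4, 3 without WT replicate 2 and 0 with the 8 libraries alone, but 10 with a GC trend removed and 22 by limma-voom. ATF4 itself was at 1219 to 1262 CPM in WT and 997 to 1246 CPM in R117fs (edgeR adjusted p = 0.141), and ASNS at 650 to 704 and 470 to 643 CPM (0.0912 by the same test).

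**Figure D3:**
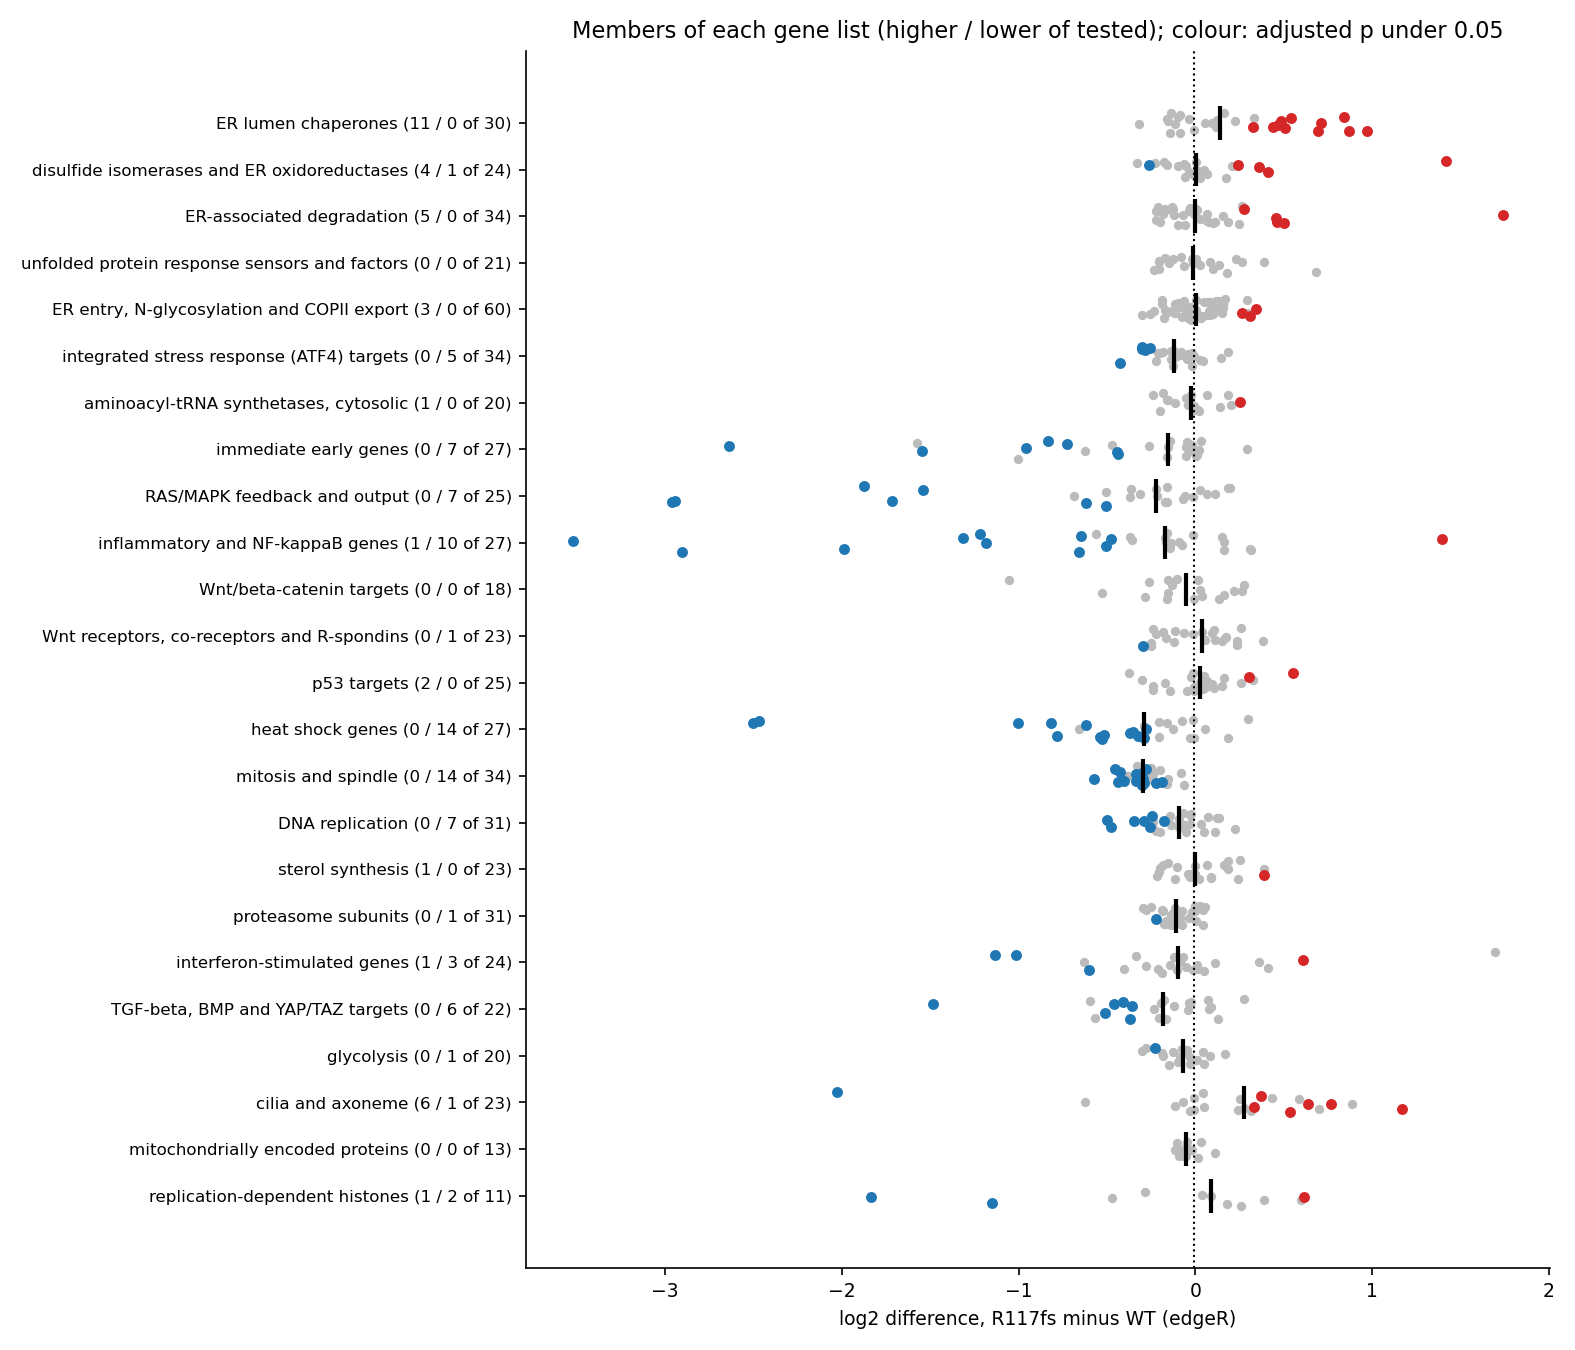
Log2 difference, R117fs minus WT, of each tested member of the 24 gene lists, with members above the edgeR threshold in red, those below it in blue and the rest in grey. Black ticks mark list medians and the dotted line the median of all genes. The largest decreases stand in the inflammatory, RAS/MAPK, immediate early and heat shock lists.

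Some immediate early genes and genes downstream of RAS/MAPK signalling fell in R117fs. Immediate early genes are transcribed within minutes of growth factor stimulation through SRF and the ERK kinases, and ERK output also includes the PEA3 factors ETV1, ETV4 and ETV5 and the feedback inhibitors of the Sprouty and SPRED families. Of 27 immediate early genes, 0 rose and 7 fell (median log2 -0.16), and of 25 RAS/MAPK genes 0 rose and 7 fell (median -0.22). The other 20 and 18 did not pass, and 3.62% of all genes were lower. The numbers lower were 6 and 8 without R117fs replicate 4.

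EGR1, a zinc finger factor at the head of this response, was at 25.6, 56.7, 42.0 and 48.4 CPM in WT replicates 1 to 4 and at 5.44, 7.12, 9.02 and 6.73 CPM in R117fs. The lowest WT library was well above the highest R117fs library, and 3 of the 4 R117fs values lay within the range of the GFP libraries, 5.93 to 9.39 CPM. EGR1 was 6.22-fold lower in R117fs (log2 -2.64 ± 0.21, edgeR adjusted p = 1.25e-06, and 0.000201 without R117fs replicate 4), a call kept in all 20 alternatives. The difference between R117fs and GFP was -0.20 ± 0.23 (edgeR adjusted p = 0.603) and that between WT and GFP 2.44 ± 0.20 (1.2e-06 by the same test). The 2 comparisons share the GFP libraries.

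ETV5 was at 3.10, 6.26, 5.80 and 5.93 CPM in WT and at 0.68, 0.53, 1.09 and 0.56 CPM in R117fs. It was 7.70-fold lower (edgeR adjusted p = 1.51e-05), and here R117fs also lay below GFP (2.48 ± 0.90 CPM, log2 -1.84 ± 0.34, edgeR adjusted p = 0.00171). SPRY4, a Sprouty inhibitor, was at 0.70, 1.74, 1.18 and 1.81 CPM in WT and at 0.10, 0.21, 0.21 and 0.21 CPM in R117fs, 7.77-fold lower at these low levels. ETV1 and ETV4 gave log2 differences of -1.88 and -1.72, VGF -1.54 and SPRED1 -0.62. The calls of ETV1 and ETV4 were lost with an offset for effective length (edgeR adjusted p = 0.0824 and 0.0661). DUSP6, the ERK phosphatase, was at 0.96, 1.63, 1.09 and 1.91 CPM in WT and at 0.58, 1.01, 1.5 and 0.51 CPM in R117fs, with overlapping ranges (edgeR adjusted p = 0.126).

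FOS was at 3.42, 9.80, 6.48 and 7.07 CPM in WT and at 0.93, 2.37, 5.28 and 1.54 CPM in R117fs, where replicate 3 reached into the WT range. Its log2 difference of -1.55 ± 0.39 passed (edgeR adjusted p = 0.026) but not without R117fs replicate 4 (0.0573), R117fs replicate 2 or WT replicates 2, 3 or 4, where the edgeR adjusted p was at most 0.0798. FOSL1, ARC and MAFF were lower by 0.96, 0.83 and 0.73 on the log2 scale. ARC was lost without WT replicate 2 (edgeR adjusted p = 0.064), and MAFF without 5 of the 8 libraries, R117fs replicates 1 and 4 among them (up to 0.102). JUN (465 ± 81.1 CPM in WT, 475 ± 68.8 in R117fs), JUNB and IER2 gave log2 differences of 0.03, 0.01 and 0.01, so the list did not move as a whole. The number of immediate early genes called lower was 2 without WT replicate 2, 3 without WT replicate 4, 4 without WT replicate 3 or R117fs replicate 2, and 1 with the 8 libraries alone, where 3 RAS/MAPK genes passed. WT replicate 1 stood low in both lists. Over the immediate early genes the median relative to the WT mean was -0.30, 0.30, -0.01 and 0.09 on the log2 scale in WT replicates 1 to 4 and -0.33, -0.13, -0.16 and -0.21 in the R117fs replicates. Over the RAS/MAPK genes it was -0.33, 0.27, -0.02 and 0.13 in WT and -0.63, -0.16, 0.05 and -0.15 in R117fs. In both lists WT replicate 1 lay below R117fs replicates 2, 3 and 4, so the groups overlapped in the list medians.

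**Figure D4:**
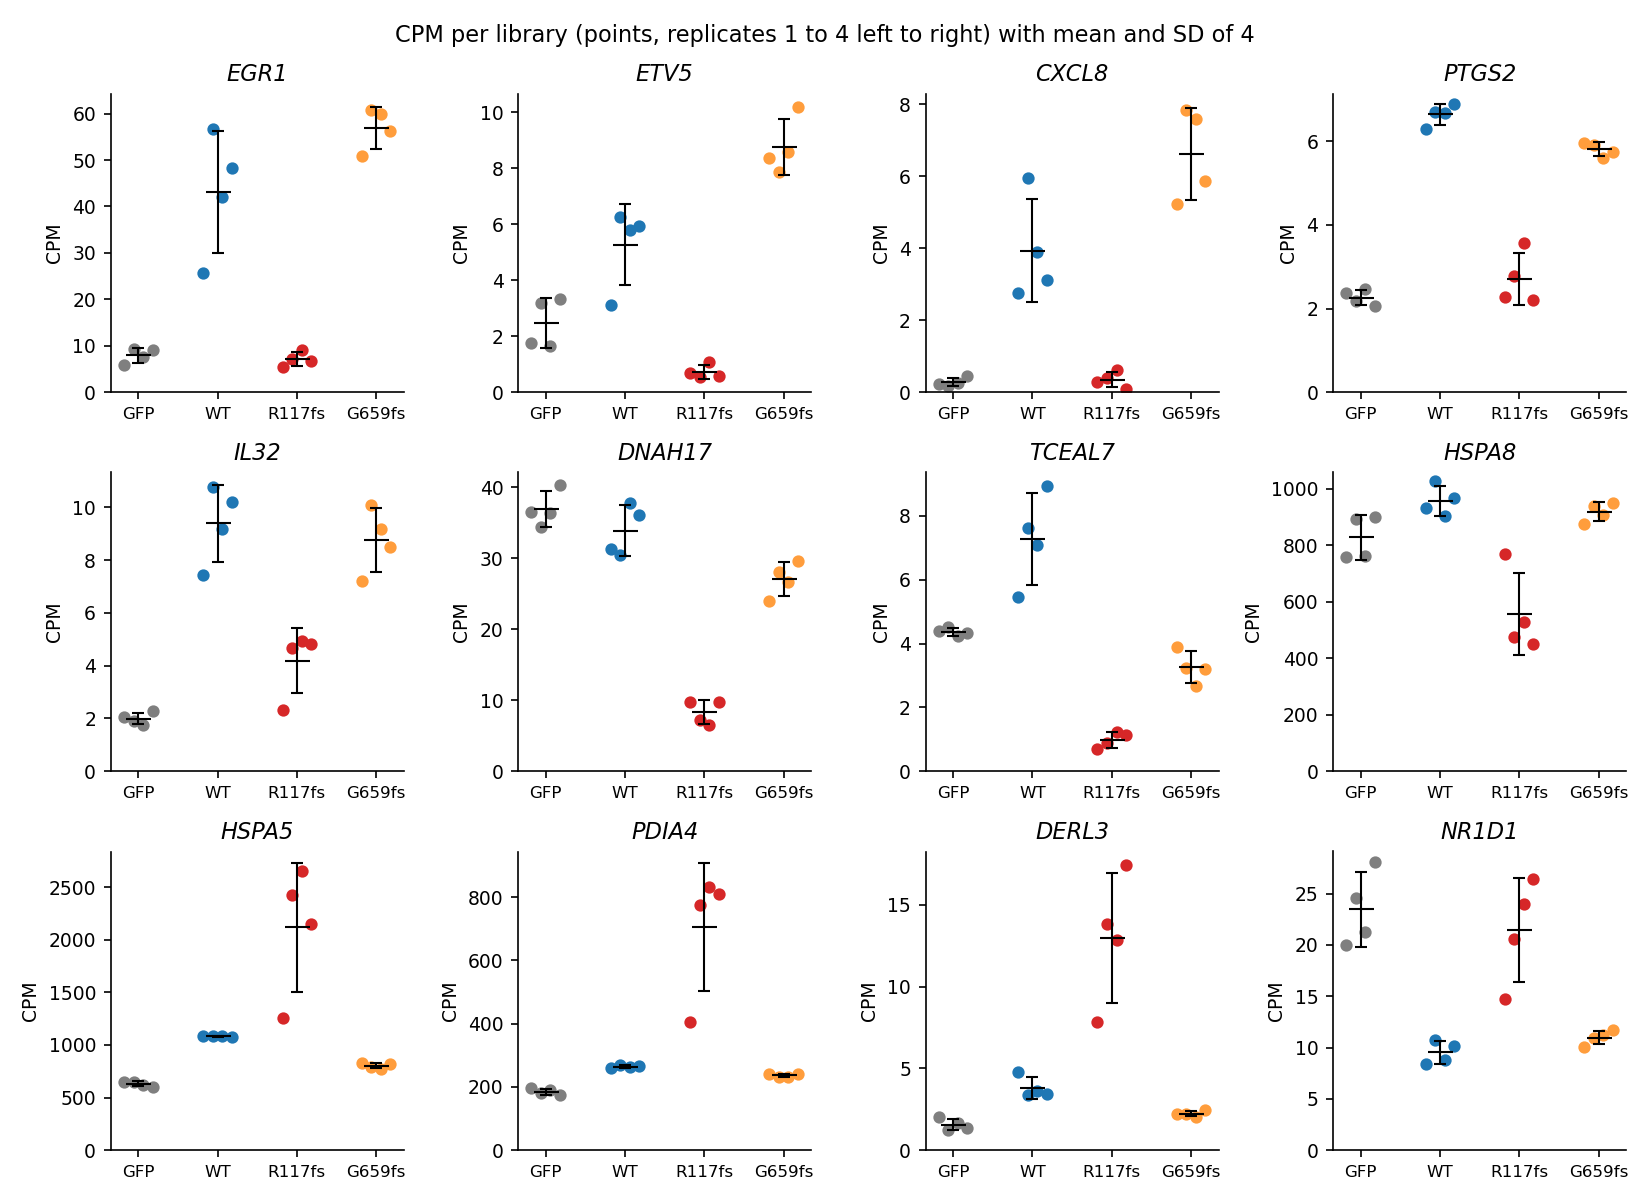
CPM of 12 genes in the 16 libraries, with the mean and SD of 4 per construct. EGR1, CXCL8 and PTGS2 in R117fs lie near the GFP libraries, whereas HSPA5, PDIA4 and DERL3 lie above every library of the other 3 constructs.

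Of 27 inflammatory and NF-kappaB genes, 10 fell in R117fs (37%), 1 rose (3.7%) and 16 did not pass (median log2 -0.17). Over all genes, 3.62% were lower and 4.50% higher. Leaving out R117fs replicate 4 gave 14 lower and 1 higher. The number lower was 6 without WT replicate 4 and between 7 and 9 without any 1 of the remaining 6 libraries. CXCL8, the neutrophil chemokine interleukin-8, was at 2.75, 5.94, 3.89 and 3.11 CPM in WT replicates 1 to 4 and at 0.28, 0.40, 0.62 and 0.10 CPM in R117fs. The ranges were separate, and the R117fs mean of 0.350 CPM was near the GFP mean of 0.276 CPM. It was 11.48-fold lower (log2 -3.52 ± 0.35, edgeR adjusted p = 1.51e-05).

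PTGS2, the inducible cyclooxygenase that makes prostaglandins, was at 6.29, 6.71, 6.68 and 6.90 CPM in WT and at 2.28, 2.77, 3.57 and 2.21 CPM in R117fs. It was 2.49-fold lower (edgeR adjusted p = 3.01e-06), with a GFP mean of 2.26 CPM. IL32, a secreted inflammatory protein, was at 7.42, 10.8, 9.18 and 10.2 CPM in WT and at 2.33, 4.66, 4.92 and 4.83 CPM in R117fs. Its R117fs libraries lay between GFP (2.00 ± 0.22 CPM) and WT, 2.33-fold below WT (edgeR adjusted p = 0.000742) and 1.02 ± 0.23 above GFP on the log2 scale (0.0062 by the same test).

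NFKBIA, which encodes the inhibitor IkappaB-alpha, was at 31.8 ± 2.68 CPM in WT and 22.4 ± 2.60 CPM in R117fs (SD, n = 4, edgeR adjusted p = 0.00208), and RELB and TNFAIP3 (A20) were lower by 0.65 and 0.66 on the log2 scale. The chemokines CXCL1, CXCL2 and CCL20 were also called lower, all at means under 1 CPM, and CXCL1 was lost without any 1 library other than R117fs replicate 4. BIRC3, an inhibitor of apoptosis and itself an NF-kappaB target, was the member called higher, at 0.81, 1.17, 1.21 and 0.71 CPM in WT and at 1.46, 3.31, 4.77 and 1.28 CPM in R117fs. It was lost without R117fs replicate 2, WT replicate 1 or WT replicate 4 (edgeR adjusted p up to 0.0693). With the 8 libraries alone 3 members were lower and 0 higher. The haematopoietic markers summed to 6.58 to 8.04 CPM in WT and 6.05 to 8.83 CPM in R117fs.

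**Figure D5:**
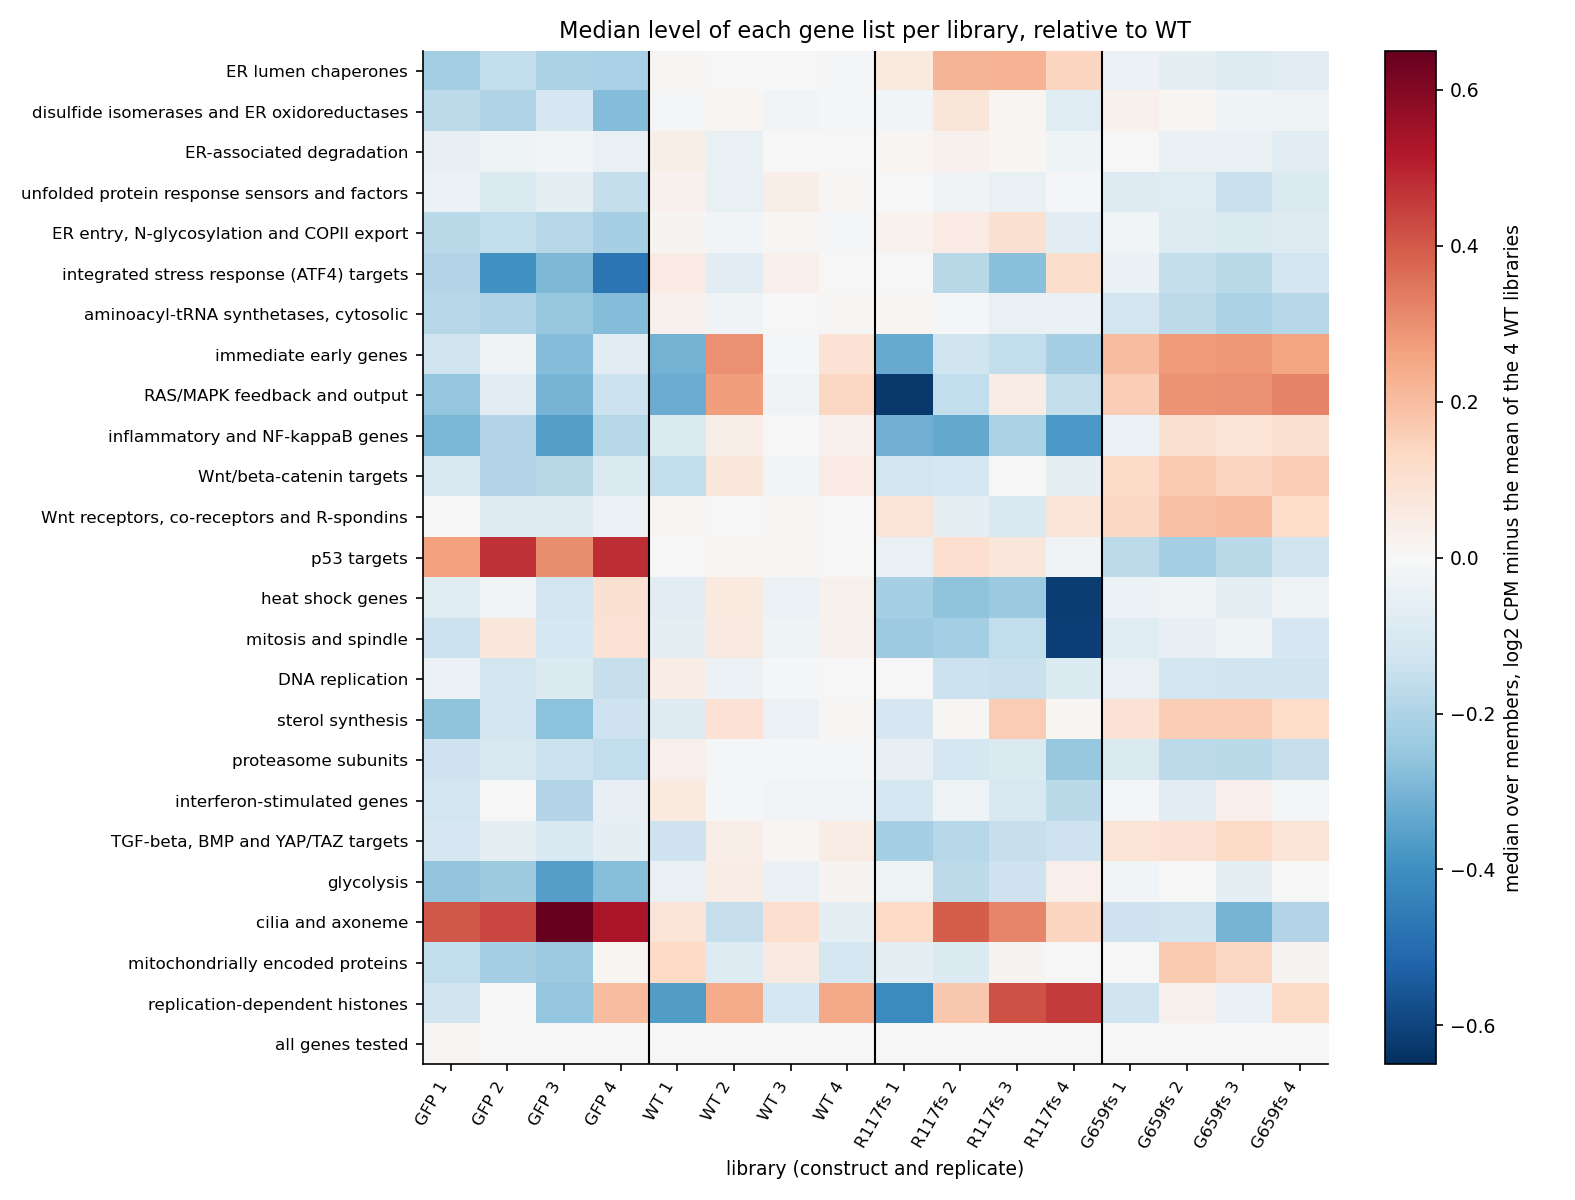
Median over the members of each gene list in each of the 16 libraries, as log2 CPM minus the mean of the 4 WT libraries (colour). The heat shock and mitosis lists lie below WT in all 4 R117fs libraries and lowest in R117fs replicate 4, and the ER lumen chaperones are above WT in all 4.

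Of 27 heat shock genes, most of them chaperones and cochaperones of the cytosol, 0 rose, 14 fell (51.9%, against 3.62% of all genes) and 13 did not pass (median log2 -0.29). Leaving out R117fs replicate 4, 16 fell. The factor HSF1 is known to drive many of them. The list also holds HSPD1 and HSPE1 of mitochondria and P4HA1 of the ER, and 12 of the 24 other members fell (14 without R117fs replicate 4). Relative to the WT mean, the list's median was -0.22, -0.26 and -0.24 on the log2 scale in R117fs replicates 1, 2 and 3 and -0.62 in replicate 4. The list's median GC content was 46.42%, below that of all genes, and the deviations of replicate 4 followed GC content. The part of GC content in the list's difference was not tested.

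HSPA8, the constitutive cytosolic HSP70, was at 931.5, 1026, 901 and 967 CPM in WT and at 767, 474, 528 and 449 CPM in R117fs. All R117fs libraries were below all WT libraries, replicate 1 the least so, and the gene was 1.72-fold lower (edgeR adjusted p = 0.00108, and 0.00535 without R117fs replicate 4). DNAJB1, a cochaperone of HSP70, was at 105, 151, 121 and 143 CPM in WT and at 70.1, 69.2, 77.3 and 79.6 CPM in R117fs, 1.76-fold lower (edgeR adjusted p = 0.000608). Against GFP, HSPA8 was lower by 0.58 and DNAJB1 by 1.05 on the log2 scale in R117fs (edgeR adjusted p = 0.00429 and 2.05e-05), while WT did not differ from GFP past the threshold for either (0.236 and 0.157).

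HSPB8, a small heat shock protein, was 2.00-fold lower, and HSP90AA1 and HSP90AB1, the cytosolic HSP90 pair, were lower by 0.62 and 0.37 on the log2 scale. HSPD1 and HSPE1, the mitochondrial chaperonin and its lid, were lower by 0.35 and 0.33. HSPA6 and HSPA1A gave the largest differences, -2.50 and -2.47, but are nearly identical to neighbouring copies, so the division of their reads is uncertain, and WT itself spread from 11.1 to 64.9 CPM for HSPA6 and from 2.17 to 11.7 CPM for HSPA1A. HSPA1A was lost without R117fs replicate 2 (edgeR adjusted p = 0.0514). The list's count was 9 without WT replicate 2 and 5 with the 8 libraries alone. An element of heat shock factors, searched as GAANNTTCNNGAA on both strands, stood in the 250 bases before the start of 2 of the 14 called genes (14.29%), HSPA6 and HSPA8, and in 2 of the 11 promoters of members that did not pass (18.18%), CHORDC1 and DNAJB6. It stood in 0.313% of the promoters of all genes tested and in 0.440% of all promoters.

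Of 34 genes of mitosis, 0 rose, 14 fell by small amounts (41.2%, against 3.62% of all genes) and 20 did not pass. All 34 differences were negative, from -0.57 to -0.07, with a median of -0.30. With 3 R117fs libraries, replicate 4 left out, 15 fell and the median was -0.21. CCNB2, a mitotic cyclin, was at 61.1, 66.9, 60.1 and 63.2 CPM in WT and at 50.3, 44.8, 50.3 and 38.0 CPM in R117fs. The ranges did not overlap, and the gene was 1.37-fold lower (edgeR adjusted p = 0.00223). CDK1, the mitotic kinase, was at 162 to 171 CPM in WT and at 133, 141, 144 and 77.2 CPM in R117fs. Replicate 4 was far below the other R117fs libraries, and the difference went from -0.44 to -0.27 without it (edgeR adjusted p = 0.0433 and 0.00231). Its call was lost without any 1 WT library (up to 0.105).

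The mitosis list had the lowest median GC content of the 24, 42.74%, and its median relative to the WT mean was -0.61 on the log2 scale in R117fs replicate 4, against -0.24, -0.22 and -0.16 in replicates 1, 2 and 3. The count rested on the WT libraries as well: 6, 4, 5 and 5 genes passed without WT replicates 1, 2, 3 and 4, and 0 with the 8 libraries alone, or 15 when R117fs replicate 4 was left out too. With a GC trend removed, 22 were lower. Of 31 DNA replication genes 0 rose and 7 fell, with or without R117fs replicate 4. With all libraries the share lower was 22.6%, against 3.62% of all genes. Among the 7 were RRM2 and TYMS, which supply nucleotides (log2 -0.50 and -0.48), and PCNA, the sliding clamp (-0.26, lost without any WT library or R117fs replicates 2 or 3). That count was 3 or 4 without R117fs replicate 2 or 3 or any WT library, and 0 with the 8 libraries alone. In bulk RNA, fewer cells in a phase of the cycle and less RNA per cell cannot be told apart.

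In Wnt signalling, the pathway RNF43 is known for, 1 gene passed with all libraries. Of 18 Wnt/beta-catenin targets 0 rose and 0 fell by edgeR with all libraries (1 and 5 at an unadjusted p under 0.05, or 2 and 5 without R117fs replicate 4, 1 and 5 by limma-voom, 0 and 1 by DESeq2), and of 23 receptors, co-receptors and R-spondins 0 rose and 1 fell. That 1 (4.35%) is near the 3.62% of all genes called lower. AXIN2, a feedback target of beta-catenin, was at 16.1, 20.1, 16.9 and 19.3 CPM in WT and at 16.2, 16.98, 22.8 and 19.2 CPM in R117fs. The groups overlapped throughout (log2 0.04 ± 0.11, edgeR adjusted p = 0.863), and its sign turned in 3 alternatives. LGR5, the R-spondin receptor, gave 0.16 ± 0.15 (edgeR adjusted p = 0.516), and ZNRF3, the relative of RNF43 with the same task, -0.16 ± 0.06 (0.114 by the same test, and 0.0221 without R117fs replicate 4). FZD1 was the receptor called lower, at 16.4, 19.7, 18.04 and 17.5 CPM in WT and at 16.2, 13.1, 13.2 and 15.9 CPM in R117fs. The ranges nearly touched (edgeR adjusted p = 0.0394), and the call was lost without R117fs replicates 2 or 3 or WT replicates 2, 3 or 4. MYC, at 204, 290.4, 210.3 and 241 CPM in WT and at 218, 195, 200.2 and 237 CPM in R117fs, did not pass (edgeR adjusted p = 0.311). Without R117fs replicate 1, 2 targets fell. Without R117fs replicate 4, 1 target rose and 2 fell, and 1 receptor gene rose and 3 fell. Surface levels of Frizzled proteins were not measured.

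Of 23 genes of motile cilia, 6 rose (26.1%), 1 fell (4.35%) and 16 did not pass (median log2 0.28). Over all genes, 4.50% were higher and 3.62% lower, so the share that fell was near that of all genes. Without R117fs replicate 4, 6 rose and 1 fell (median 0.26). FOXJ1, their transcription factor, and the axonemal genes DNAH7, DNAH11, DNAH6, WDR78 and CCDC40 rose with all libraries. DNAH7 was at 1.56, 1.58, 1.59 and 1.56 CPM in WT and at 2.61, 4.64, 4.20 and 2.67 CPM in R117fs. It was 2.25-fold higher (edgeR adjusted p = 0.0011), with a GFP mean of 3.41 CPM that did not differ from R117fs past the threshold (0.855). FOXJ1 was lost without R117fs replicate 4 (edgeR adjusted p = 0.0637) and without R117fs replicates 2 or 3 or WT replicates 1, 2 or 4, DNAH11 without R117fs replicate 2, and WDR78 without R117fs replicate 2 or WT replicate 2. The gene that fell, DNAH17, an outer arm dynein heavy chain, was at 31.3, 30.4, 37.8 and 36.1 CPM in WT and at 9.69, 7.17, 6.53 and 9.76 CPM in R117fs. It was 4.07-fold lower (edgeR adjusted p = 2.47e-08) and lay below GFP and G659fs too (36.9 and 27.1 CPM, edgeR adjusted p = 2.44e-09 and 1.8e-07). It overlaps PGS1. The number higher was 2 without R117fs replicate 2, 3 without WT replicate 2, 1 with the 8 libraries alone and 0 with an offset for effective length.

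The counts of the remaining lists are to be read beside the 4.50% of all genes called higher and 3.62% called lower. In most of these lists few members passed. Of 22 TGF-beta, BMP and YAP/TAZ targets 0 rose and 6 fell (27.3%, median log2 -0.19), a share above that of all genes. There were 7 lower without R117fs replicate 4 and 1 with the 8 libraries alone. Among the 6 were ANKRD1, CTGF and CYR61 of the YAP/TAZ set (log2 -1.48, -0.51 and -0.41) and ID2 and ID3, targets of BMP (-0.46 and -0.37). Of 24 interferon-stimulated genes 1 rose (DDX58, the RNA sensor RIG-I, 0.61) and 3 (12.5%) fell (ISG20, IFIT2 and OAS3), or 1 and 2 without R117fs replicate 4. Of 25 p53 targets 2 rose and 0 fell (2 and 1 without R117fs replicate 4), AEN by 0.55 and SPATA18 by 0.30, and CDKN1A (p21) gave -0.24 (edgeR adjusted p = 0.0974, and 0.0064 without R117fs replicate 4). SPATA18 was lost without R117fs replicates 2 or 3 or any WT library, and IFIT2 without any 1 library other than R117fs replicate 2. Sterol synthesis (1 higher of 23), cytosolic aminoacyl-tRNA synthetases (1 higher of 20), proteasome subunits (1 lower of 31), glycolysis (1 lower of 20) and mitochondrially encoded proteins (0 of 13 by edgeR, DESeq2, limma-voom and at an unadjusted p under 0.05) had shares near or under those of all genes with all libraries. Without R117fs replicate 4 these lists had 1, 1, 0, 0 and 0 higher and 1, 0, 5, 2 and 0 lower, against 4.79% of all genes lower. Proteasome subunits had 10 lower by limma-voom and 11 with a GC trend removed and a replicate block, and glycolysis had 9 lower without R117fs replicates 1 and 4, 6 with a GC trend removed and 11 by limma-voom. HMGCS1, an enzyme of sterol synthesis, gave a log2 difference of -0.22 (edgeR adjusted p = 0.342), and BTG2, a p53 target, 0.15 (0.391 by the same test). Of 11 replication-dependent histone genes, many of whose transcripts lack poly(A) tails, 1 rose and 2 fell, with or without R117fs replicate 4.

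Among protein-coding genes that passed with and without R117fs replicate 4, had separate ranges and reached 5 CPM in the higher group, the 12 highest and 12 lowest log2 differences included several genes outside the lists. TCEAL7, a small nuclear protein of the TCEAL family on chromosome X, was at 5.45, 7.61, 7.09 and 8.95 CPM in WT and at 0.68, 0.88, 1.24 and 1.13 CPM in R117fs. It was the lowest of the 12, 7.85-fold below WT (log2 -2.97 ± 0.19, edgeR adjusted p = 4.33e-08), and R117fs lay below GFP (4.37 CPM) and G659fs (3.25 CPM) as well (edgeR adjusted p = 1.81e-06 and 4.25e-05). PLA2G4C, a cytosolic phospholipase A2, was at 8.69, 8.47, 8.54 and 8.56 CPM in WT and at 3.31, 4.16, 3.11 and 4.31 CPM in R117fs, 2.30-fold lower (edgeR adjusted p = 3.01e-06).

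TNC, the matrix protein tenascin-C, was 2.23-fold and GEM, a small GTPase, 2.24-fold lower, both with R117fs means (7.87 and 8.03 CPM) nearer to GFP (5.74 and 8.94) than to WT (17.5 and 17.8). DHRS2, DDX60 and the genes described above made up the rest of the 12 lowest. At the other end SLC22A31, an orphan member of the organic anion and cation transporter family, was at 2.20, 2.53, 2.38 and 2.43 CPM in WT and at 5.47, 12.5, 9.48 and 15.4 CPM in R117fs. It was 4.37-fold higher (edgeR adjusted p = 3.27e-05), above GFP (1.25 CPM) and G659fs (1.71 CPM), with replicate 1 again the lowest of its group.

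NR1D1, the clock repressor REV-ERB-alpha, was at 8.43, 10.8, 8.77 and 10.1 CPM in WT and at 14.8, 20.6, 23.99 and 26.4 CPM in R117fs, 2.22-fold higher (edgeR adjusted p = 0.000245). The GFP mean was 23.5 ± 3.67 CPM and did not differ from R117fs past the threshold (edgeR adjusted p = 0.523), and the gene overlaps THRA on the other strand. RUNDC3A averaged 3.17 CPM in WT, 8.74 in R117fs and 7.43 in GFP. AC005258.1, with a log2 difference of 2.09, overlaps 6 protein-coding genes on chromosome 19, OAZ1 among them, and ABHD16A (1.30) overlaps a readthrough gene, so their reads are uncertain. ZNF467, CRIP2, NXPH3, ALDH8A1 and HIST1H3E made up the rest, with log2 differences of 1.14, 1.11, 1.10, 1.10 and 1.04.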

How the data were processed

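RNA of 16 HEK293 libraries was sequenced, 4 each for GFP, WT, R117fs and G659fs. The deposited estimated counts, TPM values and transcript and effective lengths (other, in bases) are per transcript, from kallisto 0.45.1 on GRCh38 per the submitters' processing notes. Of 178136 transcripts, 91.2% matched GENCODE 29 by identifier without version, and 1.904% to 2.216% of a library's counts did not. The deposited estimated counts were summed per gene and rounded. The test was edgeR 4.0.16 (R 4.3.3; TMM scaling, filterByExpr, quasi-likelihood test, 1 coefficient per construct, all 16 libraries), with Benjamini-Hochberg adjustment over 16787 genes and a threshold of 0.05. CPM are TMM-scaled, and SE is that of the log2 difference. TPM as deposited served as a check of the RNF43 transcript shares. The edgeR script was tested on simulated data.

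Members and lists were chosen with earlier results of these data known. Genes named were RNF43 and 29 others chosen by symbol (1 of them is not reported here), up to 8 called members of each ER list and up to 5 of each other list with the largest log2 difference, and the 12 highest and 12 lowest among protein-coding genes called with and without R117fs replicate 4 with separate ranges and at least 5 CPM. DNAJB9, ALG12, NFKBIA, JUN, JUNB, IER2 and further list members given by log2 difference alone were named after their values were seen. The heat shock element and the fit of the 8 libraries without R117fs replicate 4 were added after seeing the data. Alternatives were RLE size factors, DESeq2 1.42.0, limma-voom 3.58.1 with quality weights, no and a stricter low-count filter, left-out libraries, a replicate block, a GC trend and an effective length offset. Promoters are 250-base windows of RefSeq. Counts per library ranged from 20364357 to 46779570. The sources used here give no poly(A) selection, read length, strand setting or annotation release.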

Additional observations from a re-analysis of the deposited data

Results flagged for a closer look

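Over the named genes (232 groups of 4 libraries) and the shares of the 2 main RNF43 transcripts (4 groups), 15 of 236 groups held a library far from the other 3 by Dixon's criterion. The groups come from the same libraries and are not independent, so no share expected by chance is set beside this count. R117fs replicate 1 was the library far from the others for 7 genes. PDIA4 stood at 405 CPM there against 776 to 831 in the other R117fs libraries, HERPUD1 at 165.5 against 225.8 to 234.4, HIST1H3E at 9.41 against 14.33 to 15.18, IL32 at 2.33 against 4.66 to 4.92 and SPRY4 at 0.10 against 0.21. GINS4 and PSPH were highest there, at 46.9 against 39.8 to 40.81 CPM and at 65.97 against 62.76 to 63.28 CPM. R117fs replicate 4 was far below the others for CDK1 (77.2 CPM against 133.2 to 143.8), KIF11 (86.39 against 137.1 to 140.8), MTHFD2 (430.8 against 591.9 to 605.9) and RRM2 (107.5 against 152.1 to 160.9). In the WT group, replicate 1 was lowest for ETV5 (3.10 against 5.80 to 6.26 CPM) and CDKN1A (76.15 against 79.86 to 80.48) and highest for PCNA (359.1 against 327.8 to 330.3), and replicate 2 was lowest for SYVN1 (78.28 against 85.24 to 85.83).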

How the results depend on the processing

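Of the 98 named genes past the threshold, none turned its direction in the alternatives that gave it a value (20 for 94 of them, 17 to 19 for CXCL1, CCL20, HIST1H2BC and IFIT2), 31 passed in each of these and 67 were lost in at least 1, of which 62 with the 8 libraries alone. The number of genes called ran from 626 to 2607 over the left-out libraries (388 to 1453 higher, 238 to 1154 lower), and of those called at least 2-fold from 136 to 265 (53 to 177 higher, 73 to 91 lower). It was 3375 without R117fs replicates 1 and 4 (1683 higher, 1692 lower; 272 at least 2-fold, 185 of them higher), 154 with the 8 libraries alone (78 higher, 76 lower; 92 at least 2-fold, 37 higher and 55 lower) and 694 with these without R117fs replicate 4 (377 and 317; 103 at least 2-fold, 44 and 59). It was 5014 by limma-voom (2286 and 2728; 297 at least 2-fold, 172 higher), 2975 with a GC trend removed (1470 and 1505), 3740 with the trend and a replicate block (1798 and 1942), and 853 with an effective length offset (456 and 397). DESeq2 called 932 lower, no low-count filter 386 lower, and the stricter filter 99 at least 2-fold (49 higher, 50 lower). The causes of these shifts were not tested. The replicate block alone gave 1841 genes (950 higher, 891 lower). Deviations from the group mean correlated by 0.154, 0.023, -0.062 and 0.113 between WT and R117fs libraries of the same number. Pairs of unlike number ran from -0.12 to 0.154. The labels do not say whether equal numbers mark libraries made together, and this was not tested. Not every library correlated best with its own number. With TPM the RNF43 share difference was 70.92 percentage points for ENST00000577716 and -84.58 for ENST00000577625.

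Genes not past the threshold turned sign at small values. RNF43 gave -0.289 with the effective length offset and HMGCS1 0.077 without R117fs replicates 1 and 4. ATF6 ran from -0.113 to 0.019 over the left-out libraries, highest without R117fs replicate 4, and gave 0.012 without replicates 1 and 4, 0.027 with the 8 libraries less R117fs replicate 4, 0.023 by limma-voom, 0.049 after removal of the GC trend and 0.051 under the block as well. AXIN2 ran from -0.063 (without R117fs replicate 3) to 0.116, with -0.003 without WT replicate 1, and gave -0.01 by limma-voom. EIF2AK3 ran from -0.095 to 0.074, with 0.032, 0.074 and 0.01 without R117fs replicate 1, R117fs replicate 4 and WT replicate 3, 0.192 without R117fs replicates 1 and 4, 0.084 with the 8 libraries less R117fs replicate 4, 0.122 by limma-voom and 0.068 with the GC trend removed, with or without the block. The shallowest libraries, R117fs replicates 3 and 4, limit genes near 1 CPM such as CXCL1 and SPRY4.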

Other observations

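Gene families outside the lists, chosen by symbol after their values were seen and so given with no test, showed runs of calls in 1 direction. Of 469 zinc finger genes named ZNF, 43 (9.168%) were called higher and 6 (1.279%) lower in R117fs (47 and 7 without R117fs replicate 4), against 4.50% and 3.62% of all genes tested, with a median log2 difference of 0.03. Of 23 heterogeneous nuclear ribonucleoproteins, which bind nascent transcripts, 0 were higher and 6 (26.09%) lower (HNRNPA1, HNRNPA2B1, HNRNPAB, HNRNPF, HNRNPM and HNRNPU), and 8 lower without R117fs replicate 4. Of 12 SR splicing factors 3 (25.0%) were lower (SRSF6, SRSF7 and SRSF9), and 5 without that library. Of the 8 subunits of the cytosolic chaperonin CCT, which folds actin and tubulin, CCT4, CCT5 and CCT6A were called lower (37.5%) and 0 higher, and 4 were lower without R117fs replicate 4. Of 26 genes named CFAP, for cilia and flagella associated proteins, 3 (11.54%) were higher (CFAP53, CFAP77 and CFAP99) and 0 lower, with all libraries. The counts were also 3 and 0 without R117fs replicate 4. The median GC content of these 5 families lay between 43.64% and 44.95%, and that of all genes tested was 49.53%. Of 124 genes named CCDC, for coiled-coil domains, 11 (8.871%) were higher and 1 (0.8065%) lower (13 and 2 without R117fs replicate 4), with a median GC content of 49.59%. Of 38 genes named IL, interleukins and their receptors among them, 1 (2.632%) was higher and 6 (15.79%) lower (0 and 7 without that library), with a median GC content of 52.8%.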
